A study of Nezara viridula with 24 samples.

Results

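The third section of the midgut, M3, was set against the section before it, M2, in adults of Nezara viridula, a plant-feeding stink bug. Of the 24 libraries of the series, 12 belong to this comparison, 6 from M2 and 6 from M3. In each section 3 libraries came from insects given corn and 3 from insects given green bean. Every insect had moulted to the adult 24 h earlier and had fed on its diet since then, and each library pools the tissue of 4 to 10 individuals. The labels used here give no strain or sex, and they do not say whether pools of a group were reared apart. The p-values therefore rest on the spread among the pools, which may be technical. Whether M2 and M3 libraries of the same replicate number came from the same insects was not established here. The main fit left the 12 libraries unpaired, and a fit with the replicate number as a block is given as an alternative. Counts of transcripts in the Trinity assembly, which joins sequencing reads into transcripts without a genome, were summed to 201329 Trinity genes, of which 18501 had enough counts in these 12 libraries to be tested.

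In stink bugs the midgut is a chain of sections through which the meal passes in order, from M1 by way of M2 to M3 and the sections behind it. The midgut epithelium secretes digestive enzymes and takes up their products. True bugs lack the peritrophic membrane of many other insects and cover their gut cells with perimicrovillar membranes instead, and cysteine proteases of the cathepsin family are well known in their digestion. Which of these functions the genes below serve cannot be told here, because the tables used do not pair Trinity identifiers with gene names and no annotation was used. Marker lists for digestion, transport, detoxification, muscle, fat body, haemocytes, trachea and cuticle could therefore not be applied, and the labelled sections were not checked against marker genes. Genes appear under their identifiers, with at most 2 that rose and 2 that fell.

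Library totals ran from 22143378 to 33954593 estimated counts. The same Trinity gene had the largest count in all 12 libraries, at 11.1% to 19.9% of the counts, and it did not pass the test between the sections (edgeR adjusted p = 0.784). Scaling factors by TMM, which adjusts library totals for the part taken by a few abundant genes, ran from 0.590 and 0.700 in corn M2 replicates 3 and 2 to 1.46 in corn M3 replicate 1. Libraries stood apart in how many genes they detected. Corn replicate 1 had a count for 105966 genes in M2 and 122664 in M3, corn replicates 2 and 3 for 38270 to 59476, and the green bean libraries for 65244 to 93477. Both sections of a replicate shared this division, whose part in the results was not tested except by leaving libraries out. How far counts were concentrated in few genes showed no difference past the test. It took 104 ± 48.1 genes to hold 50% of the counts of an M2 library and 129 ± 32.5 genes in an M3 library (SD, n = 6 each), and the groups overlapped (exact permutation test within diets, two-sided, p = 0.325, adjusted p = 0.433 over 4 such measures). The genes at 1 CPM (counts scaled to a common library total) or more numbered 10844 ± 1455 in M2 and 12345 ± 2896 in M3, with the highest value, 17740, in green bean M3 replicate 1 (exact permutation p = 0.255, adjusted p = 0.433). The difference of 1501 genes was 422 without that library. On principal components of log2 CPM, the first, with 32.7% of the variance, did not separate the sections, and all 6 corn libraries lay on one side of 0 and 5 of the 6 green bean libraries on the other. The second component, with 22.8% of the variance, placed all 6 M2 libraries on one side and all 6 M3 libraries on the other.

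Between M2 and M3, 1051 genes were higher in M3 and 1090 were lower, with diet as a covariate. Together these are 11.6% of the genes tested, 5.68% higher and 5.89% lower (edgeR quasi-likelihood test, Benjamini-Hochberg adjusted p under 0.05), and these are the genes named as called from here on. The median log2 fold change was 2.03 among the higher genes and -2.19 among the lower ones, against -0.0033 over all genes tested. At least 2-fold differences were fitted for 851 of the higher and 923 of the lower genes, and differences over 4 on the log2 scale for 149 and 165. In 557 of the higher and 583 of the lower genes the 6 libraries of one section lay entirely above the 6 of the other. Among all genes tested, 3.31% had every M3 library above every M2 library and 3.31% had every M3 library below. The calls rest on the same libraries, so the lack of overlap describes the called genes and tests nothing. No single library decided the counts, which were 784 to 1177 higher and 870 to 1119 lower when each library was left out in turn. Without corn replicates 2 and 3 in both sections they were 1345 and 1305. With no filter on low counts, however, the balance moved, to 1653 higher and 1034 lower, so that 61.5% of calls were higher against 49.1% with the filter, and over all genes the median then stood at 0.22 on the log2 scale.

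**Figure D1:**
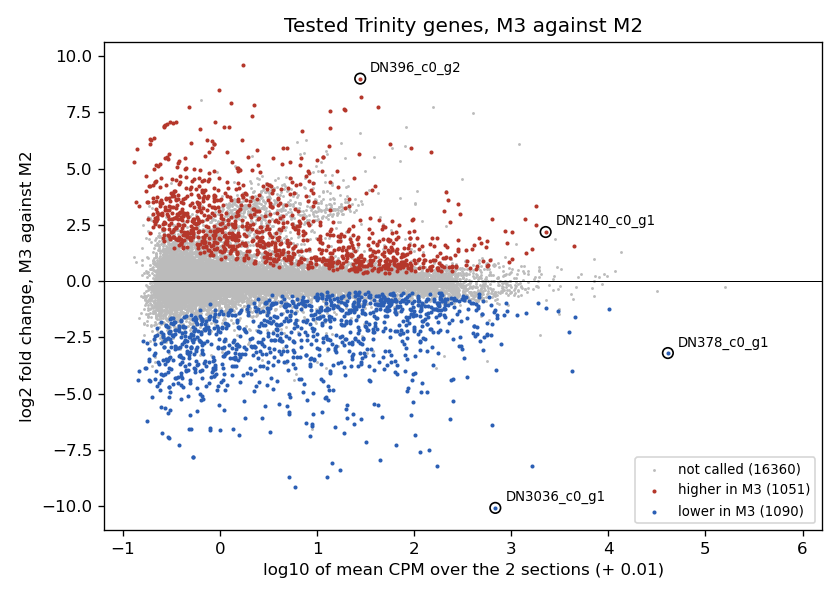
Fitted log2 fold change of M3 against M2 (vertical axis) by the log10 of the mean TMM-scaled CPM of both sections (horizontal axis) for each tested Trinity gene. Red points are the 1051 genes called higher in M3, blue points the 1090 called lower, grey points the rest, and circles mark the 4 named genes, of which DN378_c0_g1 lies farthest to the right.

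In M2 the genes lower in M3 took a larger part of the counts than those higher in M3, and in M3 they took a smaller one. The 1090 lower genes held 17.9% ± 1.201 of counts in corn M2 and 20.9% ± 1.68 in green bean M2, and 6.11% ± 0.336 and 5.04% ± 0.708 in the M3 groups (SD, n = 3 each). The 1051 higher genes rose from 2.56% ± 0.282 and 2.47% ± 0.152 of counts in M2 to 8.12% ± 0.879 and 7.51% ± 0.392 in M3. The genes were chosen for these differences, so the shares describe them and test nothing. M1 and the salivary glands had no part in the choice. In M1 the lower genes held 20.3% ± 0.880 of counts on corn and 19.6% ± 1.75 on green bean, against a range of 16.9% to 22.1% over the 6 M2 libraries. The higher genes held 3.72% ± 0.671 and 4.17% ± 0.507 of M1 counts. In the salivary glands of corn-fed insects, in the table of corn libraries, the lower genes held 2.65% ± 0.200 of counts and the higher ones 1.5004% ± 0.0325.

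**Figure D2:**
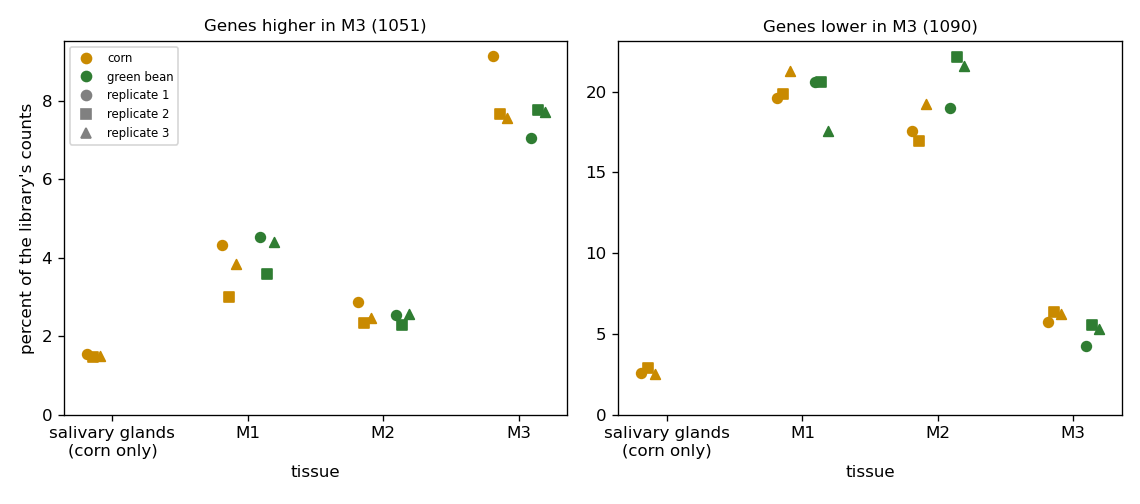
Percent of each library's counts (vertical axes, from 0) held by the 1051 genes called higher in M3 (left) and the 1090 called lower (right), by tissue, with one point per library, colours for diet and shapes for replicate numbers. The lower genes lie at 16.9% to 22.1% in M1 and M2 and at 4.24% to 6.37% in M3, while the higher genes are at 7.06% to 9.14% in M3 and at or below 4.52% elsewhere.

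The 4 named genes show forms that the change can take, and M1 levels set them apart. They were taken from 148 called genes higher in M3 and 320 lower ones. These candidates had at least a 2-fold difference, 10 CPM or more in the higher section and no overlap of the libraries. The lack of overlap was thus a condition of the choice and is no result. The tests of a named gene, on each diet alone too, use the libraries of the choice and are no separate support. In each direction the largest ratio and the largest difference among candidates were taken. TRINITY_DN3036_c0_g1 had the largest ratio among candidates that fell. It stood at 1550.1, 601 and 1706 CPM in the 3 green bean M2 libraries and at 823, 1301 and 2243 CPM in the 3 corn ones. In M3 it was at 1.30, 0.702 and 0.993 CPM on green bean and at 1.44, 0.962 and 2.39 CPM on corn. Every M2 library lay above every M3 library, as the choice required. The mean fell from 1371 ± 601 CPM to 1.30 ± 0.597 CPM (SD, n = 6 each), a ratio of 1056, with a log2 fold change of -10.08 (SE 0.49, edgeR adjusted p = 3.93e-07). It passed on each diet alone (edgeR adjusted p = 0.000938 on corn and 0.000985 on green bean). With all 18 midgut libraries scaled together it averaged 9.29 ± 7.44 CPM in M1 (n = 6), 1273 in M2 and 1.23 in M3, so that M2 stood above both of its neighbours. In corn glands it was at 0.724 to 1.44 CPM of the library total. Its 3 tested isoforms were all called lower in M3.

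TRINITY_DN378_c0_g1 had the largest difference in CPM among candidates that fell. It stood at 42382, 71822 and 58639.5 CPM in green bean M2 and at 43258, 77332 and 150967 CPM in corn M2. In M3 it was at 5374, 6768 and 7396 CPM on green bean and at 7165, 9414 and 12034 CPM on corn. The sections did not overlap, as the choice required, and corn M2 replicate 3 lay far above the other M2 libraries on this TMM scale. As a share of the library total it was at 8.89% there and at 4.35% to 8.02% in the other M2 libraries. The mean fell from 74067 ± 40300 to 8025 ± 2356 CPM, a ratio of 9.23, with a log2 fold change of -3.20 (SE 0.36, edgeR adjusted p = 9.57e-05), and of -2.92 without corn M2 replicate 3. On the scale of all 18 midgut libraries it averaged 428 ± 129 CPM in M1, 68899 in M2 and 7554 in M3, so that it was lowest at the front and highest in M2. This gene alone took 6.46% ± 2.11 of the counts in corn M2 and 6.21% ± 1.84 in green bean M2 (SD, n = 3 each). Without it the other lower genes held 11.5% ± 1.05 and 14.7% ± 0.602 of M2 counts, and 20.2% ± 0.885 and 19.5% ± 1.77 of M1 counts.

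TRINITY_DN396_c0_g2 had the largest ratio of mean CPM among candidates that rose, though not the largest fitted fold change of all called genes. It had 1, 0 and 0 counts in green bean M2 and 4, 5 and 5 counts in corn M2, at most 0.332 CPM. In M3 it reached 15.3, 26.9 and 61.6 CPM on green bean and 93.5, 45.3 and 90.9 CPM on corn. All M3 libraries lay above all M2 libraries, again by the choice. The mean rose from 0.134 ± 0.147 to 55.6 ± 32.5 CPM (SD, n = 6 each), a ratio of 416, with a log2 fold change of 8.997 (SE 0.61, edgeR adjusted p = 3.14e-06). M1 had 1 to 3 counts per library, 0.123 ± 0.0427 CPM on the scale of all midgut libraries, and corn glands had 1 or 2 counts, so among the midgut and corn gland libraries it exceeded 1 CPM in M3 alone. All 4 of its tested isoforms were called higher in M3.

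TRINITY_DN2140_c0_g1 had the largest difference in CPM among candidates that rose. It stood at 278, 425 and 1336 CPM in green bean M2 and at 292, 385 and 2177 CPM in corn M2. In M3 it was at 6219, 3408 and 3547 CPM on green bean and at 2548, 2423 and 4124 CPM on corn. Replicate 3 was the highest M2 library on both diets, and corn M2 replicate 3 came close to the lowest M3 library. The mean rose from 816 ± 778 to 3711 ± 1385 CPM, a ratio of 4.55, with a log2 fold change of 2.18 (SE 0.56, edgeR adjusted p = 0.0225). The call was lost without green bean M2 replicate 2 (log2 fold change 2.01, edgeR adjusted p = 0.0594), and without corn M2 replicate 3 the log2 fold change was 2.91. It did not pass on corn alone (edgeR adjusted p = 0.361) or green bean alone (0.0534). On the scale of all midgut libraries it averaged 9298 ± 3083 CPM in M1, 764 in M2 and 3487 in M3, so that M2 was the low point between 2 sections of higher level.

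**Figure D3:**
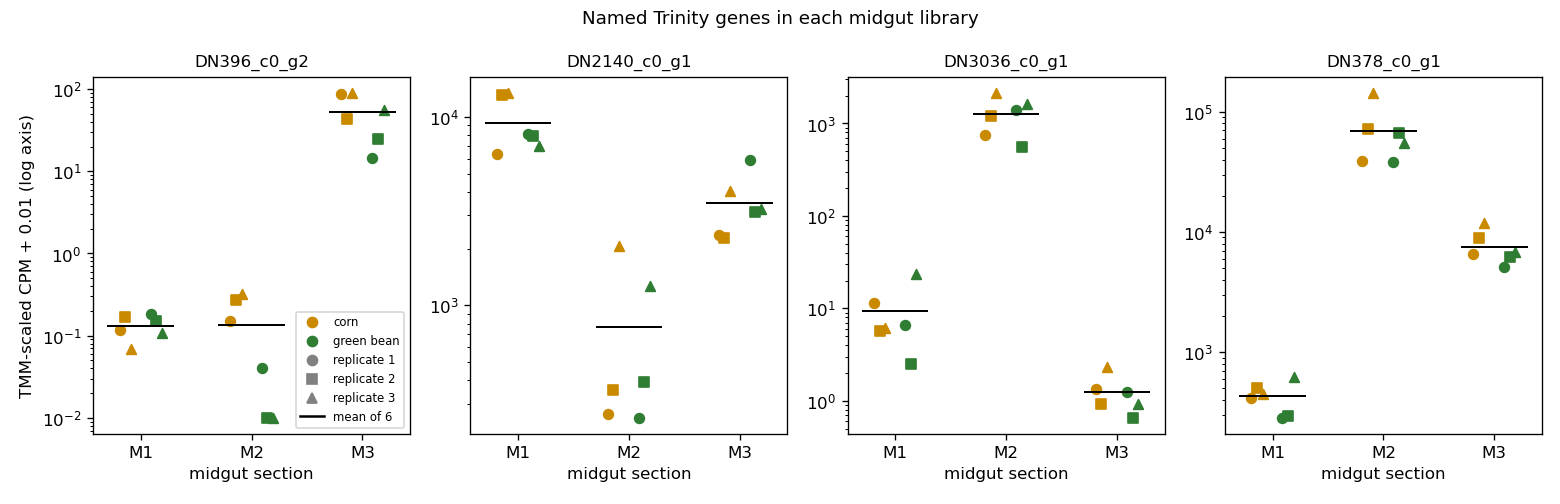
TMM-scaled CPM plus 0.01 on a log axis, scaled over all 18 midgut libraries, for the 4 named Trinity genes in sections M1, M2 and M3, with one point per library, colours for diet, shapes for replicate numbers and a bar at the mean of 6. DN396_c0_g2 is high in M3 alone among the sections, DN3036_c0_g1 and DN378_c0_g1 are highest in M2, and DN2140_c0_g1 dips in M2.

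The genes called were found at all count levels, and counts here depend on transcript length as well as abundance. Of the genes whose higher section averaged under 1 CPM, 6.38% were called, and of those over 1000 CPM, 26.7%. The low genes were more often higher in M3, with 229 higher and 178 lower under 1 CPM and 407 higher and 321 lower from 1 to 10 CPM. Lower genes prevailed above that, with 362 against 294 from 10 to 100 CPM, 207 against 108 from 100 to 1000 CPM and 22 against 13 over 1000 CPM. The median gene of the higher set was at 0.920 CPM in M2 and 4.66 in M3, and that of the lower set at 13.9 and 2.46 CPM. The 22 lower genes over 1000 CPM together held 11.9% ± 1.80 of counts in corn M2 and 12.7% ± 1.37 in green bean M2, and 3.30% ± 0.261 and 2.43% ± 0.297 in M3 (SD, n = 3 each). They include TRINITY_DN378_c0_g1, which alone held 6.46% and 6.21% of M2 counts. The 13 higher genes over 1000 CPM held 0.954% ± 0.268 of counts in corn M2 and 0.655% ± 0.145 in green bean M2, and 3.33% ± 0.227 and 3.14% ± 0.110 in M3. Of the 100 genes with the largest mean CPM in M2, 74 were also among the 100 of M3. Among the 100 of M2, 20 were called lower in M3 and 1 higher, and among the 100 of M3, 13 were called higher and 7 lower. Ranking by the mean of a section favours genes higher in that section, so these directions test nothing. Of all 131 genes over 1000 CPM in their higher section, 26.7% were called, and of those from 100 to 1000 CPM, 21.7%.

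By the limits used here, few of the differences amounted to presence in one section and near absence in the other. At least 10 CPM in M3 with under 1 CPM in M2 was found for 21 of the higher genes, and the reverse for 36 of the lower ones. These limits were chosen with values of these data known. They set the counts, since many called genes did not reach 10 CPM in either section. The median higher gene was at 4.66 CPM in M3 and the median lower gene at 13.9 CPM in M2. TRINITY_DN3036_c0_g1, at 1371 CPM in M2 and 1.30 CPM in M3, did not meet the limits. Of the 36 genes that were on in M2 and off in M3, 29 averaged at least 10 CPM in M1 and 3 averaged under 1 CPM there. Their median level ran from 37.4 CPM in M1 to 16.6 in M2 and 0.340 in M3. Of the 21 genes that were on in M3 and off in M2, 19 averaged under 1 CPM in M1, with medians of 0.147, 0.390 and 14.4 CPM along the gut. For comparison, 18494 of the tested genes had an M1 level. Of these, 5695 averaged at least 10 CPM in M1 and 7545 under 1 CPM. No count fell in any M2 library for 16 of all higher genes, and none in any M3 library for 7 of all lower genes.

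The level in M1 relative to both later sections was described for all called genes on the scale of all 18 midgut libraries. Of the 1051 higher genes, 707 (67.3%) had an M1 mean below that of M2, 307 (29.2%) lay between M2 and M3, and 37 (3.52%) stood above M3. Of the 1090 lower genes, 614 (56.3%) had an M1 mean above that of M2, 343 (31.5%) lay between, and 133 (12.2%) stood below M3. Over all tested genes with an M1 level, ordered in the same way by their M2 and M3 means, M1 lay beyond M2 for 47.9%, between for 27.5% and beyond M3 for 24.6%. The called genes had to differ between M2 and M3, which by itself makes an M1 mean beyond M3 less common, so these shares test no gradient. TRINITY_DN2140_c0_g1 belongs to the 37 higher genes and TRINITY_DN3036_c0_g1 to the genes between, which shows that the classes follow means and not patterns of presence.

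Fitted apart, the diets gave different numbers of calls, but which diet had more depended on whether replicate numbers were used as a block. On corn, 189 genes (1.34% of 14101 tested) were higher and 317 (2.25%) lower in M3, together 3.59%. On green bean, 996 of 15861 genes (6.28%) were higher and 1029 (6.49%) lower, together 12.8%. The median standard error of a log2 fold change was 0.45 on corn and 0.26 on green bean. On corn, equal replicate numbers in M2 and M3 varied together in all 3 pairs, but unequal numbers 2 and 3 did so too. A fit with the replicate number as a block called 745 higher and 970 lower there, 1715 in all. The same block on green bean, where only 2 of 3 pairs varied together, called 747 higher and 718 lower, 1465 in all, so that the order of the diets turned. Numbers from one diet also moved with single libraries. On corn they were 27 to 235 higher and 88 to 476 lower with 1 library left out, lowest without corn M2 replicate 2 and highest without corn M2 replicate 1, and leaving out any of the 3 corn M3 libraries also reduced both by over 1.5 times (68 to 82 higher and 141 to 153 lower). On green bean they were 489 to 698 higher and 617 to 735 lower, with the fewest higher calls without M2 replicate 2 (489) and the fewest lower calls without M3 replicate 1 (617). Of the green bean libraries, only M2 replicate 1 left both numbers within 1.5 times.

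The diets share no library, so the calls of one could be read against the values of the other. Over 13133 genes fitted on both diets, 142 genes were called higher on both, which is 84.5% of the 168 corn calls and 15.2% of the 935 green bean calls. Lower on both were 232 genes, 76.3% of the 304 corn calls and 29.9% of the 775 green bean calls. Calls of genes tested on 1 diet alone are left out of these shares. The genes kept are 168 of 189 higher and 304 of 317 lower corn calls. On green bean they are 935 of 996 higher and 775 of 1029 lower calls. The sign of a corn call kept in this way recurred on green bean for 99.4% of the genes higher in M3 and 98.4% of those lower. The sign of a green bean call recurred on corn for 90.9% and 93.9%, against 63.4% of all 13133 genes. The genes called lower on green bean had a median log2 fold change of -1.72 there and of -1.38 on corn, and those called higher of 1.80 and 0.97. The genes called lower on corn had medians of -3.22 there and -3.03 on green bean, and those called higher of 3.03 and 3.24. Over all these genes the log2 fold changes of the diets had a Pearson r of 0.711 and a Spearman rho of 0.464, given as a description, since genes are not independent replicates. As a share of counts, the 317 genes called lower on corn held 12.1% ± 1.67 in green bean M2 and 1.63% ± 0.394 in green bean M3 (SD, n = 3 each). TRINITY_DN378_c0_g1 is one of the 317 and alone held 6.21% ± 1.84 in green bean M2 and 0.677% ± 0.194 in green bean M3. The 189 called higher on corn held 0.232% ± 0.0150 and 1.19% ± 0.0860. The 6 green bean libraries separated by section in both measures, with the smallest p that 3 against 3 allows (exact permutation test, two-sided, p = 0.1).

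**Figure D4:**
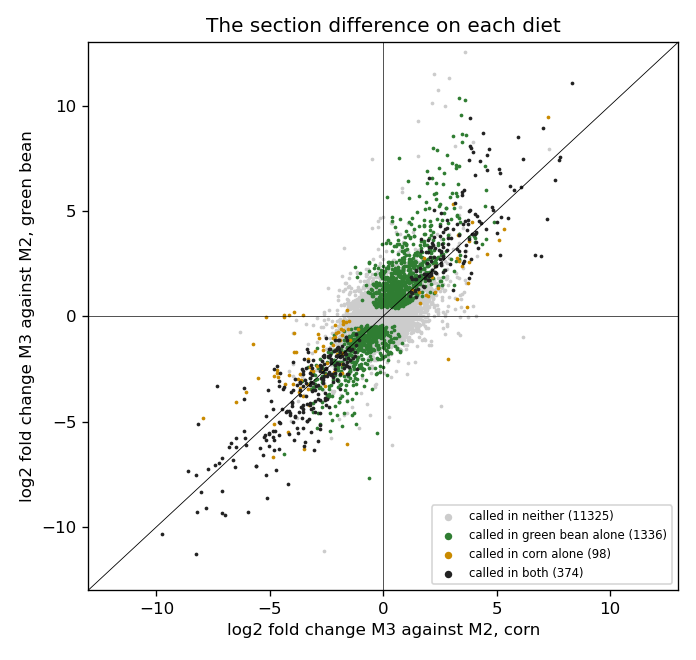
Log2 fold change of M3 against M2 fitted on corn libraries (horizontal axis) and on green bean libraries (vertical axis) for the 13133 Trinity genes tested on both, coloured by the diet in which a gene was called, with a line at equal values. Genes called on both diets lie along the line in the upper right and lower left quadrants.

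Whether the step from M2 to M3 itself differed between diets was tested as an interaction. No gene of 18501 passed (0% called, edgeR, lowest adjusted p = 0.1). An unadjusted p under 0.05 was found for 942 genes, close to the number that this threshold alone would give among 18501 genes. DESeq2 called 112 of the 12430 genes to which it gave an adjusted p, 87 of them with a larger M3 to M2 ratio on green bean. Without corn M2 replicate 1 edgeR called 8 genes, and with a replicate block 6. TRINITY_DN396_c0_g2 averaged 76.6 ± 27.1 CPM in M3 of corn-fed insects and 34.6 ± 24.1 CPM in M3 on green bean (SD, n = 3 each). The fitted M3 to M2 ratio was larger on green bean by 2.75 on the log2 scale (SE 1.18), a value that rests on a single count in the green bean M2 libraries, and it did not pass (edgeR adjusted p = 0.914). For TRINITY_DN378_c0_g1 the log2 fold changes were -3.20 on corn and -3.13 on green bean, with an interaction of 0.10 (SE 0.68, edgeR adjusted p = 1.00).

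Isoforms of one gene did not always follow it. Of 7489 genes with at least 2 tested isoforms, 229 (3.06%) had an isoform make-up that differed between M2 and M3 (edgeR diffSpliceDGE, Benjamini-Hochberg adjusted p under 0.05), and with 1 library left out the number was 192 to 301. The isoform with the most counts differed between the sections in 75 of the 229 genes (32.8%), and in 17.1% of all 7489. The largest change in the share of any isoform had a median of 21.8 percentage points in the 229 genes and of 6.67 in all. At gene level 111 of the 229 were also called, which is 48.5% of them and 10.1% of the 1098 called genes with at least 2 tested isoforms. The other 118 differed in make-up without a called difference in the gene's sum. Isoforms share reads, and the error of dividing those reads among them is not in the tables, so p-values at this level may be too small.

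Both named genes of large difference were among the 229. In TRINITY_DN378_c0_g1, isoform 1 made up 65.8% ± 4.12 of the gene in M2, with a range of 61.7% to 73.8%, and 89.0% ± 3.99 in M3, from 85.2% to 94.0% (SD, n = 6 each). Isoform 9 went the other way, from 21.3% ± 2.40 to 5.76% ± 2.17, and the sections overlapped in neither (edgeR adjusted p = 2.62e-12 for the make-up). In M1, isoform 1 was at 85.2% ± 4.31 and isoform 9 at 5.75% ± 2.94. Of the 10 tested isoforms 6 were called lower in M3, isoform 9 with a log2 fold change of -5.09 and isoform 1 with one of -2.68. The make-up with more of isoform 9 was thus found in the section where the gene was highest.

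In TRINITY_DN2140_c0_g1, isoform 15 rose from 48.3% ± 19.7 of the gene in M2 to 77.2% ± 5.29 in M3, and stood at 79.3% ± 5.77 in M1, while isoform 5 went from 39.9% ± 18.6 to 17.9% ± 6.42, with 9.19% ± 4.23 in M1 (edgeR adjusted p = 8.19e-07 for the make-up between M2 and M3). The M2 libraries were far from uniform. Isoform 15 held 28.5%, 32.6% and 71.1% in green bean M2 and 34.9%, 49.9% and 72.7% in corn M2, in the order of replicates 1 to 3. Both replicate 3 libraries lay within the M3 range of 67.9% to 82.1%, and they were also the M2 libraries with the highest level of the gene. Of its 12 tested isoforms, isoform 5 was called higher in M3 and isoform 4 lower (edgeR adjusted p = 0.0365 and 0.0368), while isoform 15 was not called (0.0949).

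**Figure D5:**
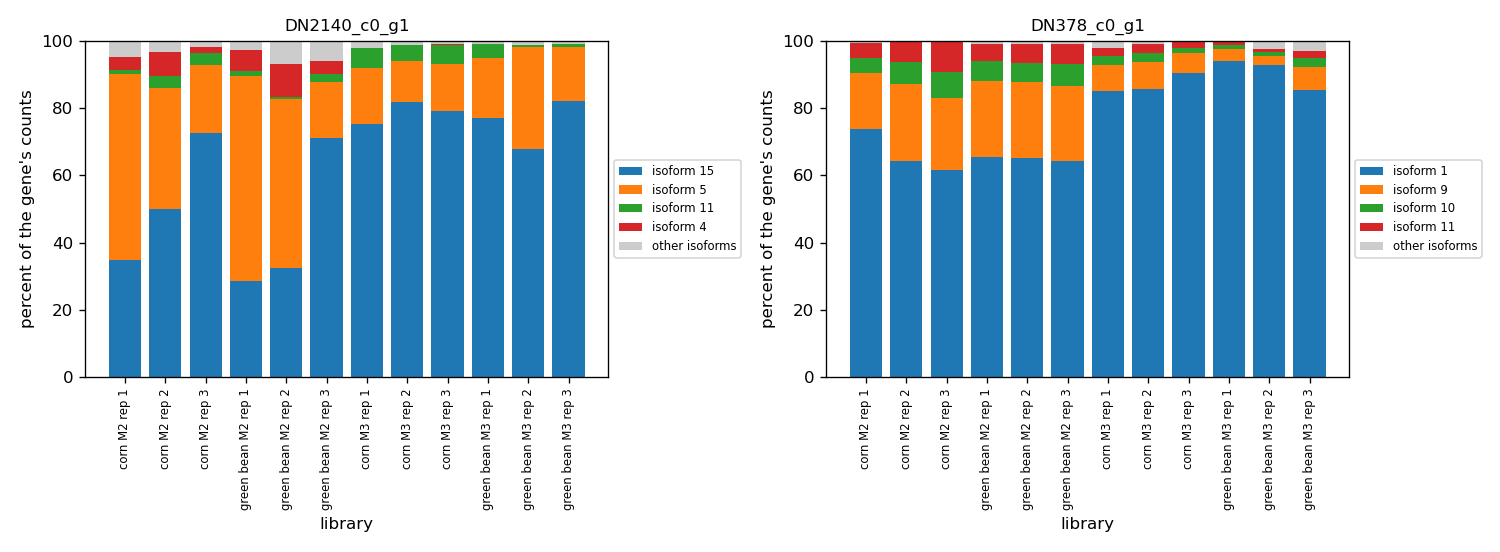
Percent of the gene's counts in each isoform (stacked bars from 0 to 100) for DN2140_c0_g1 (left) and DN378_c0_g1 (right) in each M2 and M3 library. Isoforms averaging under 2% are pooled in grey, isoform 1 of DN378_c0_g1 is larger in every M3 library than in any M2 library, and isoform 15 of DN2140_c0_g1 holds 71.1% and 72.7% in the M2 replicate 3 libraries, within the M3 range.

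Trinity groups genes whose sequences were joined in assembly into components, so genes of a component can be related copies or fragments of one transcript and are not independent. At least 2 called genes stood in 115 components, 238 genes in all and never more than 3 in a component. Of the 18501 genes tested, 4961 stood in components with at least 2 tested genes. In 55 of these components all called genes were lower in M3, in 42 all were higher and in 18 the directions were mixed, so that 84.3% moved in one direction. In 53.2% of the 2161 components with at least 2 tested genes all of them had the same sign, called or not. The first share counts called genes only, so these shares are not like measures. When counts were summed to components, 828 components were higher and 888 lower.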

How the data were processed

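Per the labels' protocols, polyA RNA was sequenced. The submitters' processing notes name Salmon 0.12, Trim Galore 0.4.4 and DESeq2 1.20.0 without saying what each did. The authors deposited estimated counts for 298322 transcripts in 3 tables, and any fractions were rounded to whole numbers here. Other steps are not given in the sources used here. The midgut table gave all results, and the corn table the gland levels and an alternative.

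Isoforms were summed to Trinity genes. In R 4.3.3 with edgeR 4.0.16, genes were kept by filterByExpr, libraries were scaled with TMM (trimmed mean of M-values), and section tested with diet as covariate by glmQLFit (robust) and glmQLFTest, two-sided, with Benjamini-Hochberg adjustment over all tested genes and a threshold of 0.05. Genes tested held 96.5% to 99.8% of each library's counts. A standard error is the log2 fold change divided by the square root of F. Levels are TMM-scaled CPM unless said otherwise, and a count of 3 over a section is 0.0214 CPM in M2 and 0.0165 in M3. DESeq2 1.42.0 was an alternative. The edgeR tests of section, of each diet apart, of the interaction and of isoform usage were tried on simulated data. The permutation test was checked on a small set of made-up values, and the alternatives were not simulated.

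Named genes passed the test with at least a 2-fold difference, no overlap of libraries and 10 CPM or more in the higher section. In each direction the largest ratio and the largest difference were taken. The comparison, lists and rules were chosen with earlier results of these data known.

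No pair of replicates within a group came near sampling noise (chi-square over genes, divided by its degrees of freedom, of 60.2 to 235), so none was counted as a duplicate. Equal replicate numbers in M2 and M3 had deviations from group means that correlated over genes on corn (r of 0.679, 0.345 and 0.473), and on green bean in 2 of 3 pairs (0.588, -0.0927 and 0.695). Equal numbers thus met the limit of 0.1 in every pair on corn and not for all 12 libraries. Some unequal numbers passed 0.1 too. On corn these were M2 replicate 3 with M3 replicate 2 (0.18) and M2 replicate 2 with M3 replicate 3 (0.214). On green bean they were M2 replicate 2 with M3 replicate 1 (0.223) and M2 replicate 3 with M3 replicate 2 (0.255). The limit therefore does not tell corn replicates 2 and 3 apart as pairs. Alternatives were other scalings, filters, tests, fits and levels, the replicate block and libraries left out.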

Additional observations from a re-analysis of the deposited data

Results flagged for a closer look

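In 20 sets of 6 libraries, covering the named genes, the library measures and the shares of called genes, 2 held a library far from the other 5, where chance gives about 1 in 20. TRINITY_DN378_c0_g1 stood at 150967 CPM in corn M2 replicate 3, and the next M2 library was at 77332 CPM. As a share of the library total the gene was at 8.89% there and at 8.02% in the next highest M2 library. Genes higher in M3 took 9.14% of counts in corn M3 replicate 1, against 7.76% in the next M3 library.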

How the results depend on the processing

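Counts for both diets stayed within 1.5 times under scaling by DESeq2 size factors, a filter of 1 CPM in 3 libraries, the DESeq2 test (1553 higher and 1516 lower), a fit to all 18 midgut libraries, a fit without robust estimation, summing to components and every library left out. With the replicate block they were 1272 and 1302, of which 988 and 1044 were shared with the fit without it. They moved with no filter (1653 higher) and at transcript level, where 636 genes had an isoform higher and 701 an isoform lower. Single diets moved more. On corn, DESeq2 called 438 higher and 643 lower, the replicate block 745 and 970, and with 1 library left out the numbers were 27 to 235 and 88 to 476. On green bean, no filter gave 2114 higher, DESeq2 1565 higher and the fit to all 18 libraries 522 higher and 622 lower, with 489 to 698 and 617 to 735 when 1 library was left out. The replicate block gave 747 and 718 there. The interaction count of 0 became 101 with no filter, 4 with the filter of 1 CPM, 112 with DESeq2, 6 with the replicate block and 0 to 8 with 1 library left out. Isoform usage stayed within 1.5 times (166 genes with isoforms of at least 5%, 220 with the replicate block). None of the library measures passed under any alternative, and the share of the top gene, -0.0998 percentage points in M3 minus M2, turned to 1.82 without corn replicates 2 and 3 and ranged from -0.900 to 0.867 with 1 library left out. TRINITY_DN2140_c0_g1 did not pass with no filter (log2 fold change 2.31, edgeR adjusted p = 0.152), and its adjusted p ranged from 0.00114 to 0.0594 with 1 library left out. On corn alone, TRINITY_DN378_c0_g1 lost its call without corn M2 replicate 2 or any of the corn M3 libraries (edgeR adjusted p 0.0792 to 0.140), with log2 fold changes of -3.08 to -3.37 there against -3.20 with all corn libraries. The causes were not tested.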

Other observations

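Some genes were seen in a single library. In green bean M3 replicate 1, 632 Trinity genes reached 1 CPM of the library total while they stayed under 0.1 CPM in all 11 other M2 and M3 libraries, and the other libraries each had 0 to 26 such genes. The 632 genes held 0.115% of that library's counts, and none of them was among the genes tested.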
